A study of Homo sapiens and Mus musculus with 54 samples.

Results

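The H3K27ac list of untreated HepG2 held 106666 regions, which were all rows of its peak list and part of 434604 regions and peaks in the 6 lists of the series. HepG2 is an established human liver cancer cell line with hepatocyte features, and H3K27ac is acetylation of lysine 27 on histone H3. The libraries behind the list were H3K27ac ChIP-seq on day 12 from 5 cultures with the control vitamin B2 (riboflavin) supply and 5 B2-deficient cultures, and "untreated" means only that neither vehicle (DMSO) nor an AhR inhibitor was added. The labels call the libraries biological replicates and give no age, clone or passage of the line. They name input libraries (unenriched chromatin) for the other ChIP targets in HepG2 and none for H3K27ac. The list gives a name, chromosome, start, end and strand sign per region, and holds no number for any library. Sequencing depth is unknown as a result, and control and B2-deficient cells are not compared here. All values below are positions and their counts. Wilson 95% intervals cover counting error over regions only, and neighbouring regions are not independent.

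H3K27ac is placed by the acetyltransferases p300 and CBP and marks active promoters and active distal enhancers, where nucleosomes flank an open site bound by transcription factors. In hepatocytes, enhancers of this kind are bound by factors such as HNF4A, FOXA2 and C/EBPα and sit near genes of plasma proteins, lipid handling and gluconeogenesis. Long runs of closely spaced acetylated regions are often found at genes that define a cell's identity. AhR, the aryl hydrocarbon receptor, is a ligand-activated factor that binds with its partner ARNT to the xenobiotic response element, whose core letters are GCGTG.

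The list was nearly empty at annotated gene starts, so the few starts that a region did reach are shown first. Starts came from RefSeq windows (GRCh38.p14, the assembly of hg38) for 15843 of 20037 protein-coding genes. A gene with NM or NR transcripts is called curated below, and one with XM or XR transcripts only is called model-only. Of 21832 windows of 300 bases at starts of curated protein-coding genes, 230 (1.05%) shared sequence with a region. At model-only long non-coding RNA genes the count was 724 of 7666 (9.44%), and at curated ones 139 of 5251 (2.65%). The covered starts printed here belong to genes of the lists used below and were chosen after their values were seen. AHRR encodes the AhR repressor, a feedback inhibitor induced by AhR. MTTP encodes the microsomal transfer protein that loads lipid onto apolipoprotein B. ACACB encodes acetyl-CoA carboxylase 2, whose product malonyl-CoA holds back mitochondrial fatty acid oxidation. The 250 bases before each start are printed with the bases inside an acetylated region in capitals.

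AHRR, chr5:321464-321713, plus strand: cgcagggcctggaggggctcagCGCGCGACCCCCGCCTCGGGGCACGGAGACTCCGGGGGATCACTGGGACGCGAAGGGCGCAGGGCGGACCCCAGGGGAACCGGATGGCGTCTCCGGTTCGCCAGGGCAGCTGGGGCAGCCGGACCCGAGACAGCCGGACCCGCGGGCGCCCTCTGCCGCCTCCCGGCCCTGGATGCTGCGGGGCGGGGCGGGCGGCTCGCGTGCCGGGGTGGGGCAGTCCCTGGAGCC

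MTTP, chr4:99574574-99574823, plus strand: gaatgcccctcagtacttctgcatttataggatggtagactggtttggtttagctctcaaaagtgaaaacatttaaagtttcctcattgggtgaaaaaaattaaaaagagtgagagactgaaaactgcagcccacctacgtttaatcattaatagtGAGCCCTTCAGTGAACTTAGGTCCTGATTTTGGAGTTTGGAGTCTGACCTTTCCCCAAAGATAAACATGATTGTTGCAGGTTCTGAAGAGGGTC

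ACACB, chr12:109154429-109154678, plus strand: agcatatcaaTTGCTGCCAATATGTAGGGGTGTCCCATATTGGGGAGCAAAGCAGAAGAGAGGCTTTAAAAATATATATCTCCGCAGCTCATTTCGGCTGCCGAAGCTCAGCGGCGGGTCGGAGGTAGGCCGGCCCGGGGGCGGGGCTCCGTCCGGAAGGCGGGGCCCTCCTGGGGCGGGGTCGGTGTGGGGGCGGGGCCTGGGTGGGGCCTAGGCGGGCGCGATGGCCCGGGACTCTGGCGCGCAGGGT

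At AHRR the region at chr5:321485-321773 was 288 bp wide, reached from 229 bp before the start to 59 bp after it and covered 228 of the 250 printed bases. It shared sequence with an AhR peak and with no C/EBPα peak. The letters GCGTG occurred once in the AHRR window on the strand shown and were absent on the other strand, and the single match lies in the capitals. Neither strand of the MTTP or ACACB window held them. Of 35116 windows of the same 250 bases, 11313 (32.2%) held GCGTG on either strand, so a match is common and is given as a description only. At MTTP the region at chr4:99574729-99574958 was 229 bp wide, spanned the gene's downstream start from 95 bp before to 134 bp after it, and shared sequence with an AhR peak and a C/EBPα peak. All 4 regions assigned to MTTP lay between 99572585 and 99574958 inside the gene body, next to that start. At ACACB the region at chr12:109154438-109154767 was 329 bp wide, covered 240 of the printed bases, and shared sequence with neither factor's peaks. The gene's upstream start at 109116587 had 2 regions at its window, at 109116148 to 109116385 and at 109116535 to 109116799, and the first of these shared sequence with peaks of both factors.

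MicroRNA hairpins were also nearly free of regions. Of 1562 hairpins with a RefSeq position, 1 was overlapped by a region, 13 had a region edge within 2500 bp and 656 (42.0%) had a region within 10 kb. The mature forms below belong to hairpins with a known role in liver, lipid control or tumours and to the overlapped one, with the seed (bases 2 to 8), which pairs with target RNAs, in capitals. miR-192 and miR-194 are liver and gut microRNAs, miR-33a and miR-33b lie in introns of the sterol regulators SREBF2 and SREBF1, miR-21 is raised in many tumours, and miR-12128 is the overlapped hairpin.

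hsa-miR-192-5p: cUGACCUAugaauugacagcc

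hsa-miR-194-5p: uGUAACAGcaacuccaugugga

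hsa-miR-33a-5p: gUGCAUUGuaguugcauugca

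hsa-miR-33b-5p: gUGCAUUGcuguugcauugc

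hsa-miR-21-5p: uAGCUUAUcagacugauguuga

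hsa-miR-12128: uUCAGGGAuggcgcaugaagaggaga

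miR-33a-5p and miR-33b-5p share the seed UGCAUUG, and the other 4 seeds differ from it and from each other. The hairpin of MIR122, the most abundant hepatocyte microRNA (chr18:58451074-58451158), had its nearest region 4357 bp away, 2 regions within 10 kb and 35 within 50 kb. The neighbouring MIR192 (chr11:64891137-64891246) and MIR194-2 (chr11:64891355-64891439) had nearest regions at 2691 and 2909 bp and each had 4 regions within 10 kb. MIR21 (chr17:59841266-59841337) had its nearest region 3363 bp away and 7 within 10 kb. MIR33A on chromosome 22 had 6 regions within 10 kb, the nearest at 6624 bp, and MIR33B on chromosome 17 had 3, the nearest at 4126 bp. Each of these hairpins thus had regions a few kilobases away and none on the hairpin itself. MIR142 and MIR223, microRNAs of blood cells, had no region within 10 kb. MIR142 had its nearest region 13475 bp away and 15 within 50 kb, a count between those of MIR33A (10) and MIR122 (35). The nearest to MIR223 was 777126 bp away. MIR12128, inside the GSE1 gene on chromosome 16, was the overlapped hairpin and had 13 regions within 10 kb.

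The question behind the start profile was where the list begins round a gene. Within 3 kb of curated protein-coding starts lay 1071 region centres, 1.00% of the list, against 7710 centres from 3 to 6 kb. The change was a step and not a slope: 214 centres lay at 2.5 to 3 kb and 1450 at 3 to 3.5 kb. It stood on both sides, from 74 to 670 centres upstream and from 140 to 782 downstream. Over the 22199 starts of all protein-coding genes in the table, 226 centres lay just inside 3 kb and 1463 just outside, a ratio of 6.47 (95% interval 5.63 to 7.45, counting error only).

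The step followed the annotation of the position. It was present at curated long non-coding RNA starts, with 64 centres just inside and 345 just outside 3 kb, and at hairpins, with 3 and 101. It was not seen at model-only long non-coding RNA starts, where 376 centres lay just inside and 392 just outside, a ratio of 1.04. There the centres piled up on the start itself, with 998 within 500 bp of 7666 starts, against 331 within 500 bp of 21832 curated protein-coding starts. Pseudogene positions gave 537 inside and 568 outside. The 3′ ends of 8879 curated protein-coding genes of 20 kb or more gave 580 and 514, and region density there was highest near and just beyond the gene's end.

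**Figure D1:**
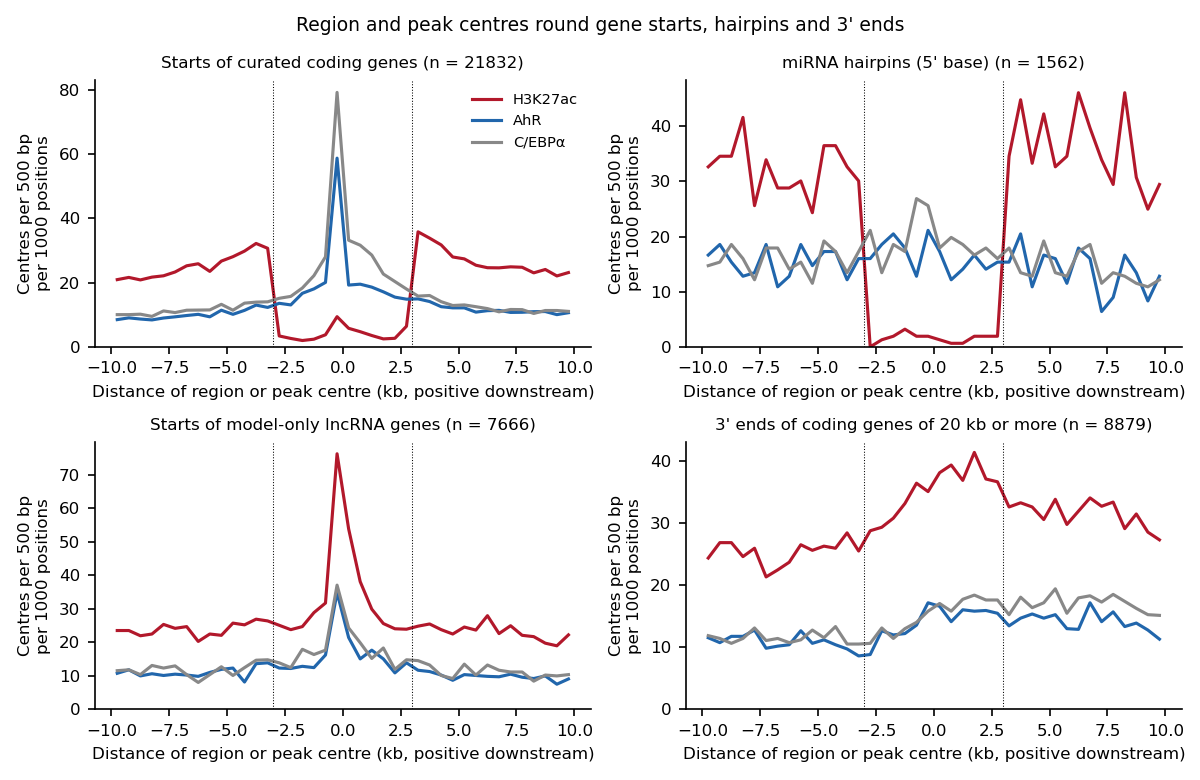
Centres per 500 bp and per 1000 positions (y axis) against distance in kb, positive downstream (x axis), for H3K27ac regions (red), AhR peaks (blue) and C/EBPα peaks (grey), with dotted lines at 3 kb. H3K27ac centres drop inside the lines at curated coding starts (1450 to 214 centres across the line) and at hairpins (101 to 3), and peak on the start at model-only lncRNA genes (998 within 500 bp), while the factor peaks have no step at 3 kb in any panel.

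The AhR and C/EBPα lists of HepG2, made with added protein crosslinking and other antibodies, had no such step. At curated protein-coding starts AhR had 619 centres just inside and 595 just outside 3 kb, and C/EBPα had 723 and 651. Factor peaks near starts therefore seldom met an H3K27ac region. Of 6364 AhR peaks within 3 kb of a curated start or hairpin, 444 (6.98%, Wilson 95% interval 6.38 to 7.63) shared sequence with a region, against 37867 of 47869 (79.1%, 78.7 to 79.5) farther away. For C/EBPα the counts were 357 of 8374 (4.26%, 3.85 to 4.72) and 28893 of 51775 (55.8%, 55.4 to 56.2). The sources used here do not say how the list came to be empty there, and the absence of a region within 3 kb of a start is not read as absence of acetylation anywhere below.

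Transfer RNA genes, short genes transcribed by RNA polymerase III, often had a region on the gene itself. Of 443 tRNA genes, 203 (45.8%) had a region within 500 bp and 173 were overlapped. Chromosome 6, which holds the largest tRNA gene clusters, had 85 of its 155 tRNA genes with a region within 500 bp (54.8%), and chromosome 1 had 32 of 98 (32.7%). Region centres around tRNA genes numbered 270 within 500 bp, and 26 just inside and 23 just outside 3 kb.

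Chromosome 8 entered no start distance above and enters the gene-end distances that follow. Region centres lay a median of 22.2 kb from the nearest end of a protein-coding gene, on either side of it (quartiles 7.86 and 61.1 kb). Of all regions, 9318 (8.74%) lay within 3 kb of a gene end, 22905 (21.5%) at 3 to 10 kb, 42964 (40.3%) at 10 to 50 kb, 14779 (13.9%) at 50 to 100 kb and 16700 (15.7%) beyond 100 kb. The share with an AhR peak went from 25.5% (Wilson 95% interval 24.7 to 26.4) in the nearest class through 33.0%, 38.5% and 43.1% to 44.8% (44.1 to 45.6) in the farthest. C/EBPα went from 20.0% to 33.0% over the same classes. A gene end here is a start or a 3′ end. The list is nearly empty at curated starts, where AhR had 5347 peak centres within 3 kb, so the nearest class holds few regions at those starts. The shares describe the listed regions and not factor binding by distance from genes. The centre lay inside a protein-coding gene for 54313 regions (50.9%, 50.6 to 51.2).

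Regions were narrow. Widths ran from 200 to 3070 bp with a median of 283 bp (quartiles 249 and 329 bp), 87.9% were under 400 bp, and the list covered 33.0 Mb in all. Each region's name ends in a number, read here as the count of peaks merged into it and called the merge number. The merge number was 1 for 23292 regions (21.8%), 2 for 81088 (76.0%) and 3 or more for 2286 (2.14%), with a maximum of 11. Median width was 253 bp at merge number 1, 287 bp at 2 and 613 bp at 3 or more. The sources used here do not say which peak sets were merged, so the number is no measure of acetylation.

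Regions with different merge numbers differed in what else lay on them. AhR peaks lay on 15.7% of regions at merge number 1 (Wilson 95% interval 15.3 to 16.2), 44.2% at 2 (43.8 to 44.5) and 37.4% at 3 or more (35.4 to 39.4). C/EBPα gave 13.9%, 33.2% and 29.3%. The H3K27ac list of the AhR inhibitor experiment, 97145 regions in the same cell line, held a region of identical coordinates for 79.2%, 89.4% and 99.8%. The sources used here do not say how both lists came to share coordinates, so identical coordinates are not read as replication. Factor shares were highest at middle widths. The AhR share was 33.3% under 250 bp, 43.4% at 300 to 400 bp and 23.6% at 600 bp or more, and the C/EBPα share was 26.4%, 32.5% and 21.9%. A wide region offers more bases for an overlap, and the widest class had the lowest shares. Merge number 2 or more was held by 58.6% of regions under 250 bp, 85.7% at 300 to 400 bp and 84.9% at 600 bp or more. The shares by width were not separated from merge number.

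The 149 regions of 1000 bp or more were led by 1 of 3070 bp with merge number 11 at LRRC47 on chromosome 1 (3776485 to 3779555). APOB, which encodes the structural protein of VLDL and LDL, held the next, of 2213 bp (chr2:21036030-21038243), and another of 1922 bp. FASN, fatty acid synthase, had 1 of 2140 bp on chromosome 17 (82084525 to 82086665). IRS1, the insulin receptor substrate that carries the insulin signal in hepatocytes, had 1 of 1564 bp on chromosome 2. Others in the 12 widest lay at SHARPIN (2081 bp), BPIFB2 (1861 bp), COL9A3 (1682 bp), IFFO1 (1650 bp), FFAR4 (1648 bp) and CACFD1 (1602 bp). A region of 1794 bp on chromosome 21 (8994196 to 8995990) was also among the 12, with an AhR peak and no protein-coding gene within 50 kb. All 12 were present with identical coordinates in the inhibitor list, and an AhR peak fell in 3 of them.

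Neighbouring regions were separated by a median gap of 5109 bp (quartiles 592 and 20839 bp) over 106642 gaps. The gaps had a population of close neighbours and a population of distant ones. Of all gaps 29.7% were under 1 kb, and the most common centre-to-centre spacing was 400 to 450 bp, with 3056 pairs. Among gaps without a curated start or hairpin, the count per 0.1 log10 unit had a local high of 2795 between 316 and 398 bp, a low of 2130 between 794 and 1000 bp and its highest value of 3738 between 7943 and 10000 bp. Gaps that held a curated start or hairpin, 14238 in number, had a median of 40416 bp and 0.288% of them were under 1 kb, which the empty zone at starts fixes. The other 88138 had a median of 3141 bp, with 34.6% under 1 kb.

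**Figure D2:**
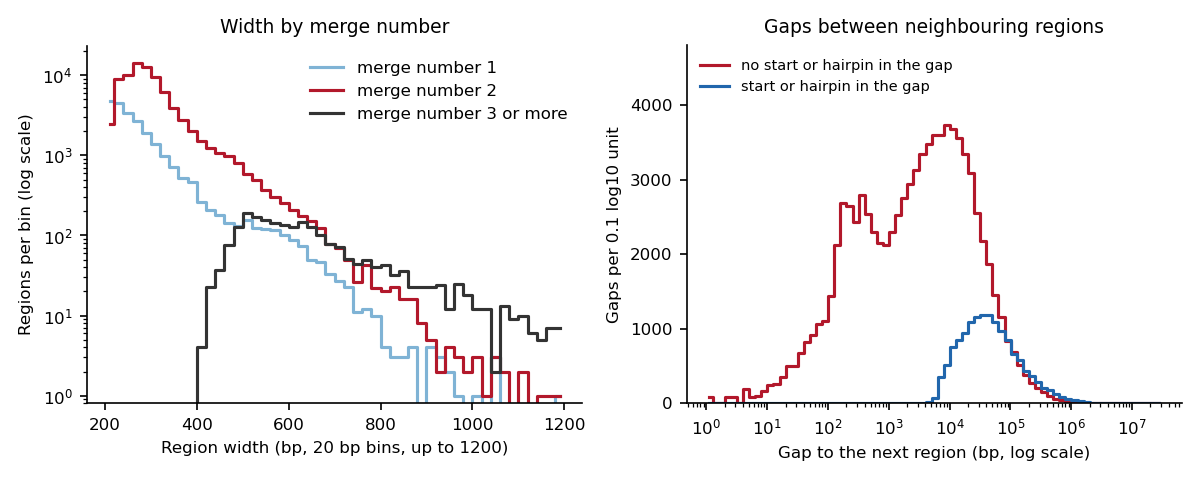
Left: regions per 20 bp bin of width (log scale) for merge numbers 1 (blue), 2 (red) and 3 or more (black), with medians of 253, 287 and 613 bp. Right: gaps to the next region per 0.1 log10 unit, with a curated start or hairpin in the gap (blue, median 40416 bp) or without (red, median 3141 bp). The red curve has 2 humps and the blue curve, low below 5 kb, rises steeply near 6 kb.

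Regions joined across gaps of up to 10 kb formed 41260 clusters, of which 21788 were single regions. The 5413 clusters of 5 or more held 45.2% of the list, and the 269 of 20 or more held 7.50%. The largest had 82 regions over 155 kb of chromosome 20 (50328823 to 50483789), in gene-free sequence whose nearest protein-coding gene is PTPN1, a phosphatase that dampens insulin receptor signalling. SDC1, a heparan sulphate proteoglycan that takes up lipoprotein remnants in hepatocytes, and the chromosome 17 block of TOB1 and WFIKKN2 had 77 each. FGFR3, a fibroblast growth factor receptor, with LETM1 had 75, the lower-coordinate end of GSE1 had 71 and GADD45B, a stress-response gene, with GNG7 had 66.

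The 15 largest clusters held 54 to 82 regions each. Most lay on chromosomes 2, 14, 16, 17 and 20, of which HepG2 is known to carry extra copies. The others lay on chromosomes 4, 6, 8 and 19, and the part of copy number in cluster size was not tested. The genes in or nearest to 10 of the 15 clusters were PTPN1, SDC1, TOB1, FGFR3, GSE1, SECTM1, GADD45B, SLC39A11, SNX5 and ZFP36L2. ALB and AFP, the adult and fetal plasma albumins, shared 61 regions over 84.1 kb of chromosome 4. NFKBIA, the inhibitor of NF-kappaB, had 61 regions over 71.2 kb, APOB 55 over 74.6 kb and VEGFA, a hypoxia-induced angiogenic factor, 54 over 101 kb. The share of a cluster's regions with an AhR peak ranged from 4.62% at NDRG1 to 50.8% at ALB and AFP. NDRG1, a stress and hypoxia-responsive gene, also stood apart by merge number, with 38.5% of its 65 regions at 2 or more, against 61.1% to 83.9% in the other 14. Over the whole list the AhR share was 39.9% in lone regions (Wilson 95% interval 39.2 to 40.5) and 29.0% in clusters of 20 or more (28.1 to 30.1).

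Regions were assigned to the nearest protein-coding gene body within 50 kb. This placed 89528 regions (83.9%) at 13735 of 20037 genes, 68.5%. A region centre inside the body was found for 10279 genes, 51.3%. The 2734 genes with 10 or more regions held 57.6% of the assigned regions, and 67 genes had 50 or more. The count went up with gene length. A body region was found in 11.9% of genes under 10 kb, 52.8% at 10 to 50 kb, 82.6% at 50 to 200 kb and 93.8% above 200 kb. An assigned region was found for 41.45% of genes under 10 kb and 95.14% above 200 kb. Counts of list members with a region are to be read beside the 68.5% of all genes. A density is used below beside the count, the region centres per 100 kb of the body with 50 kb on either side. Its median over all protein-coding genes was 4.68 (quartiles 1.80 and 9.07), and 14.6 was the 90th percentile. Windows of close neighbours overlap and count the same centres, so densities of clustered genes are not independent. The density also varied with length, with medians of 4.65 under 10 kb, 5.41 at 10 to 50 kb, 4.46 at 50 to 200 kb and 2.36 above 200 kb, so densities of lists with different gene lengths are set side by side as descriptions.

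The most assigned regions lay at GSE1 with 189, of which 164 had their centre in the body of 507 kb. SNX29, a sorting nexin gene, had 108, WWOX, a large tumour suppressor gene at a fragile site, had 104, RAD51B, a recombination repair gene, had 91, and LRMDA had 89. These are long genes, and their body densities were 32.4 per 100 kb at GSE1, 16.1 at SNX29 and 7.71 to 9.16 at the other 3. NOL4L (82 regions, 54.1 per 100 kb of body), NEDD9, a focal adhesion scaffold gene (79, 27.1), and NDRG1 (73, 101.5) reached the 20 highest counts with shorter bodies. The others were RPS6KC1 (76), KCNQ1 and PRDM16 (75 each), AOPEP and TRAPPC9 (72 each), FNDC3B, PLEKHM3, SYN3 and ZMIZ1 (71 each), ZFHX3 (70), PARD3 (68) and MACROD2 (67).

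Per 100 kb of body, among genes of 10 kb or more, ALB came highest, with 24 centres in 17.2 kb (139.6). ALB encodes serum albumin, the main secreted product of hepatocytes. SLC38A2, an amino acid transporter induced by amino acid shortage, had 109.7 and NDRG1 had 101.5. APOB had 41 centres in 42.6 kb (96.1), SECTM1 had 92.8, and NHERF1, an apical scaffold gene, 91.7. SERPINA1, alpha-1-antitrypsin, had 86.4, SLC7A5, the large neutral amino acid transporter, 86.1, MIDN 85.2, CDH15 84.2 and ERRFI1, a feedback inhibitor of EGFR, 82.3. Of the 15 genes with the highest values, 3 were gene models without an established role, LOC124901892 (136.3), LOC105370092 (103.6) and PPIAP60 (84.3).

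At the other end were long genes with an empty body. The 10 longest were NELL1 (906 kb), FRMPD4, GRM7, PCDH11X, TENM1, INPP4B, PCDH11Y, FOXP2, FGF13 and TRHDE (583 kb). Several of these are genes of neurons or brain development: GRM7 is a glutamate receptor, the PCDH11 genes are protocadherins, TENM1 is a teneurin, FOXP2 a forebrain factor and FGF13 a regulator of sodium channels. FOXP2 had 2 regions assigned from outside its body, and the other 9 had none. FRMPD4, PCDH11X, TENM1 and FGF13 lie on the X chromosome and PCDH11Y on Y, the chromosomes with the fewest regions per Mb (11.2 and 2.55). The part of the chromosome in these empty bodies was not tested.

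Hepatocyte transcription factor genes all had regions, 15 of 15, beside 68.5% of all genes. Their median density was 16.3, and 8 of them were above the 90th percentile of all genes (2004 of 20037 genes are). HNF4A, the nuclear receptor that maintains hepatocyte identity, had 30 assigned regions, 26 with the centre in its 78.9 kb body, and a density of 21.8. CEBPB, an acute phase factor, had 26 regions, all outside its short body of 2108 bp, and a density of 30.4. CEBPA, the factor of the C/EBPα ChIP, had 25 regions and a density of 27.3. FOXA1, a pioneer factor, had 11 (25.5) and FOXA2 17 (16.3). GATA6 and NR5A2 were lowest, with 7 and 9 regions and densities of 5.27 and 3.60.

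The 11 hepatocyte markers had the highest median density of the 25 lists, 22.2, with 8 above the 90th percentile. Like all the lists they were chosen with earlier results of these data known, so this is a description and no independent check of the label. All 11 also belong to the factor, plasma protein, apolipoprotein or coagulation lists, so these lists are not independent. APOB had 56 regions, TF, transferrin, 43, ALB 39, SERPINA1 32, HNF4A 30, AHSG, fetuin-A, 18, TTR, transthyretin, 10, and FGB, fibrinogen beta, 2. APOA1 and APOC3, apolipoproteins of HDL and of triglyceride-rich particles, had none assigned, though their windows held 9.82 and 9.69 centres per 100 kb. Of the 11 markers 9 thus had a region, and the 2 without lie next to each other on chromosome 11.

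Among plasma proteins, 18 of 22 genes had a region, with a median density of 13.8. TF, ALB, SERPINA1 and AHSG led, and A1BG, ORM1, ORM2 and VTN had none. Of 30 coagulation and complement genes 25 had one, at a median of 9.09. The central complement component C3 had 25, 24 of them with the centre in the body, coagulation factor F5, the anticoagulant PROC and C8A had 15 each, and F9, SERPINC1, C4A, C4B and C8G had none. Of 15 apolipoprotein genes 10 had one, close to the share of all genes, at a median of 9.69. That value is the density of APOC3, which had no region assigned and whose window overlaps those of APOA1, APOA4 and APOA5. APOB (56) stood far above APOA4 and LPA (6 each) and APOF (4), while APOA1, APOA2, APOA5, APOC3 and APOM had none. C4A and C4B are near-identical copies, so reads there may not be placed uniquely.

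The acute phase list, proteins made by the liver in inflammation, had 12 of 15 genes with a region and a median density of 10.4. SOCS3, the feedback inhibitor of IL-6 signalling, had 18, SERPINA3 15, IL6R, the IL-6 receptor, 13, and IL1RN 12, and CD14, HAMP and SAA4 had none. The genes of fetal liver and hepatoma had 10 of 11, with a median of 11.04. GPC3, a surface proteoglycan of hepatocellular carcinoma, had 29, AFP and IGF2BP1 22 each and DLK1 17, while TERT had none. AFP stood highest by density, at 49.2.

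Metabolic lists also lay above the median of all genes. For gluconeogenesis 12 of 14 genes had a region, at a median of 11.8. GPT2, a mitochondrial alanine aminotransferase, had 38, PCK1, the cytosolic PEP carboxykinase, had 32 at a density of 47.7, the co-activator PPARGC1A 27 and G6PC1, the glucose-6-phosphatase that releases glucose, 24. GPT and SDS had none. For lipogenesis it was 17 of 19 at 12.6, with MLXIPL, the carbohydrate response factor ChREBP, at 30, LPIN1 at 26, GPAM, the first acyltransferase of triglyceride synthesis, at 23 and LPIN2 at 19. FASN had 18 regions and the highest density of that list, 34.2, while FADS1 and THRSP had none.

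Sterol genes had 20 of 21 with a region, at a median of 9.58. INSIG2, which retains the sterol sensor in the endoplasmic reticulum, had 21, MVK, mevalonate kinase, had 16, and CYP51A1 had none. Bile acid genes had 13 of 17 at 11.5, with AKR1D1, the steroid 5-beta-reductase, at 24, FGFR4, the receptor for FGF19, at 15, BAAT at 10 and KLB at 8. CYP7B1, SLC51B and the uptake transporters SLCO1B1 and SLCO1B3 had none assigned, and the density was 0 at SLCO1B1, SLCO1B3 and CYP7B1. Fatty acid oxidation had 19 of 21 at 8.76, led by the lipid droplet coat gene PLIN2 (21), CPT2 (12), CPT1A (11) and FABP1 (10), with none at ACADVL and ETFDH. The urea cycle had 8 of 9 at 8.95, led by SLC25A13 (19), CPS1 (18) and ASS1 (15), with none at NAGS. Among liver nuclear receptors 19 of 23 had a region, at a median of 8.29, led by RXRA (45), the common heterodimer partner, RORA (38), THRB (27) and PPARD (25). NR0B2, NR1H2 and NR1I3 were among those with none.

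CYP1 and AhR genes had 12 of 15 with a region at a median density of 5.11, beside 4.68 for all genes. AHR itself (gene ID 196, chr7:17298652-17346147) had 4 regions of 206 to 355 bp, all inside the body, at a density of 2.71, and 1 of the 4 had an AhR peak. CYP1A1, the P450 gene classically induced by AhR (gene ID 1543, chr15:74719542-74725528), had 2, at 74716590 to 74716958 and 74730940 to 74731171. They lay 2584 and 5412 bp from the gene, on either side, and each overlapped an AhR and a C/EBPα peak. ARNT2, a partner of AhR-type factors, had 15, NFE2L2, the oxidant response factor, 13, AHRR and TIPARP 9 each, and NQO1, SERPINB2 and UGT1A6 had none assigned. UGT1A6 shares its body with the other UGT1A genes, and 3 centres lay inside it.

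Riboflavin handling had 8 of 9 genes with a region and a median density of 8.76, but the median count was 1. ENPP1, a nucleotide pyrophosphatase, had 22, and the plasma membrane riboflavin transporters SLC52A3, SLC52A1 and SLC52A2 had 5, 4 and 1. RFK and FLAD1, which make FMN and FAD from riboflavin, had 1 each, and the mitochondrial carrier SLC25A32 had none. For the tryptophan to kynurenine pathway, whose products include AhR ligands, 10 of 12 genes had a region at a median of 5.38. HAAO had 20, KYNU 17, IDO2 10 and KYAT3 6, and TDO2, the liver tryptophan dioxygenase, and KMO had none.

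Genes expressed in every cell were mostly short. Of 24 ubiquitous and ribosomal protein genes, 12 had an assigned region and 2 had one in the body, and their median length was 4.88 kb. Among all genes under 10 kb the share with a body region was 11.9%, and a body this short lies largely inside the empty zone of 3 kb around its start. Their median density, 7.36, was above that of all genes. RPL3 had 22 regions, PSMA1 12, ACTB 10 and RPS3 8, all but those of PSMA1 outside the body, and those with none included RPL10A, RPL13A, RPL4, RPL7, RPL8, RPLP0, RPS18, RPS2, RPS6, TBP and TUBA1B. GAPDH, a glycolytic gene used as an expression standard, had 1.

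Lists for other cell types had median densities from 0.953 to 5.68, on either side of the 4.68 of all genes. Their shares of genes with a region ran from 63.6% to 90%, beside 68.5% of all genes and 81.8% of the hepatocyte markers, so these shares do not set the markers apart. The neuron list was lowest, at 0.953, with a median gene length of 103.5 kb, and 14 of its 18 genes had a region, led by DLGAP1 (30), CNTNAP2 (23), SNAP25 (17) and RBFOX3 (13), and NEFL, SLC17A7 and SYN1 were among those with none. Skeletal muscle genes had 11 of 15 at 4.75, led by NEB (11) and ACTA1 (8), with none at DES, MYH1, MYOG and TNNT3. Macrophage and leukocyte markers had 12 of 16 at 4.85. LYZ led with 17, followed by CD3E and ITGAM with 5 each, and PTPRC, the pan-leukocyte CD45, had 1, outside its body. ADGRE1, CD68, MS4A1 and TYROBP had none.

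Stellate cell and fibroblast markers had 9 of 14 at 4.43, with RELN at 30, PDGFRB at 13 and LHX2 at 9, and with none at ACTA2, DCN, DES, HAND2 and LUM. Endothelial markers had 10 of 13 at 3.87. Here PECAM1 (36), VWF (26) and CDH5 (12) had many regions, while KDR and EMCN had a density of 0 and CLEC4G had none assigned. Cholangiocyte markers had 9 of 10 at 3.26, among them SOX9 (16), PKHD1 (13) and EPCAM (12), with none at MUC1. HOX and early developmental genes had 7 of 11 at 5.68, led by POU5F1 with 10, and HOXA5, HOXA9 and PAX6 were among those with none. The counts for PECAM1, VWF and LYZ were not matched to expression here.

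**Figure D3:**
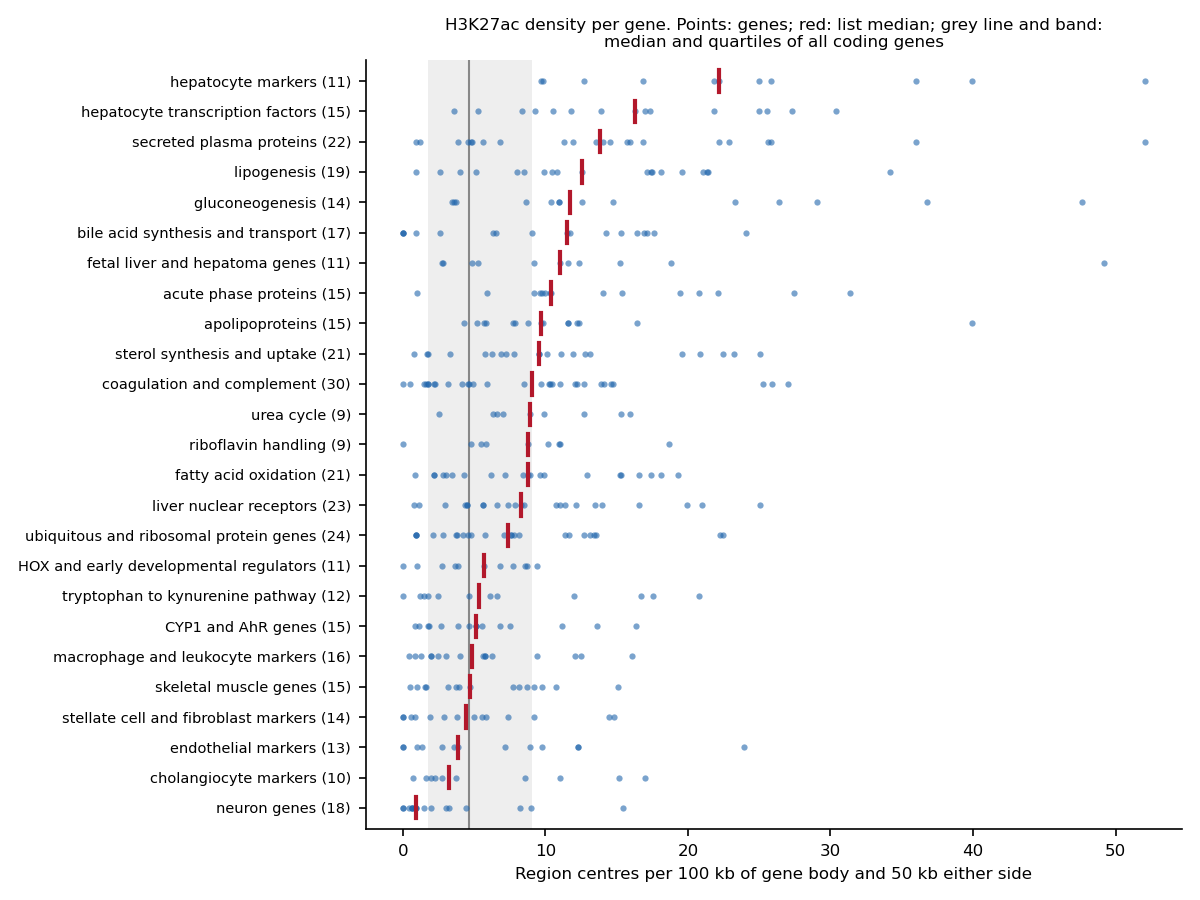
Region centres per 100 kb of gene body and 50 kb either side (x axis) for each gene (blue points) of 25 lists (y axis, members in brackets), with the list median (red) and the median and quartiles of all protein-coding genes (grey line and band). Medians run from 22.2 for hepatocyte markers to 0.953 for neuron genes, beside 4.68 for all genes.

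The nearest centre to a gene's start lay just past 3 kb at many genes of some liver lists and at fewer of others. The empty zone leaves few centres within 3 kb, so at a gene in dense surroundings the nearest centre falls near the zone's edge. The shares below are therefore not independent of the densities above and show no separate placement of regions at liver genes. Over 15517 curated protein-coding genes with a start, 467 (3.01%) had a centre within 3 kb and 2219 (14.3%) had the nearest at 3 to 4 kb, with a median of 10.4 kb. Of 6 hepatocyte markers with a start in the table, 5 had the nearest centre at 3 to 4 kb: ALB at 3055 bp, HNF4A at 3275 bp, AHSG at 3290 bp, FGB at 3363 bp and TF at 3680 bp. SERPINA1, the other, had it at 2844 bp. Of 9 hepatocyte factor genes with a start, 5 were in that band, among them FOXA1 at 3036 bp, CEBPA at 3179 bp and CEBPB at 3344 bp. The same band held 9 of 17 plasma protein genes, 7 of 10 acute phase genes, 5 of 24 coagulation and complement genes (20.8%), 3 of 13 bile acid genes (23.1%), 4 of 18 ubiquitous and ribosomal protein genes (22.2%), 0 of 11 neuron genes and 0 of 11 CYP1 and AhR genes.

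Seen region by region, the albumin locus had its 39 ALB regions between 73375308 and 73427008 on chromosome 4. Their widths ran from 212 to 764 bp with a median of 332 bp, 29 had merge number 2 or more, 21 had an AhR peak and 12 a C/EBPα peak. The nearest region on the start side lay 2945 bp outside the gene. The first region in the body had its centre 3088 bp after the start, and from there regions followed each other to the gene's other end with gaps of 11 to 495 bp. AFP, next on the chromosome, had 22 regions, 11 in the body, 10 with an AhR peak and 5 with a C/EBPα peak. At APOB 56 regions had a median width of 369 bp, and the body held both very wide regions of 2213 and 1922 bp. AhR peaks were on 10 of the 56 and C/EBPα peaks on 7.

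SERPINA1 (gene ID 5265, chromosome 14) had 32 regions of 208 to 1397 bp, 11 with an AhR peak and 8 with a C/EBPα peak. TTR (gene ID 7276, chromosome 18) had 10 regions, 1 in the body of the gene, and 9 of the 10 had an AhR peak and 6 a C/EBPα peak. CPS1, the first enzyme of the urea cycle (gene ID 1373, chromosome 2), had 18, 10 with an AhR peak. CEBPB had 26, 4 with an AhR peak. Over the whole list 37.8% of regions had an AhR peak, and these loci, chosen for their genes, had counts on either side of that share, with no test.

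**Figure D4:**
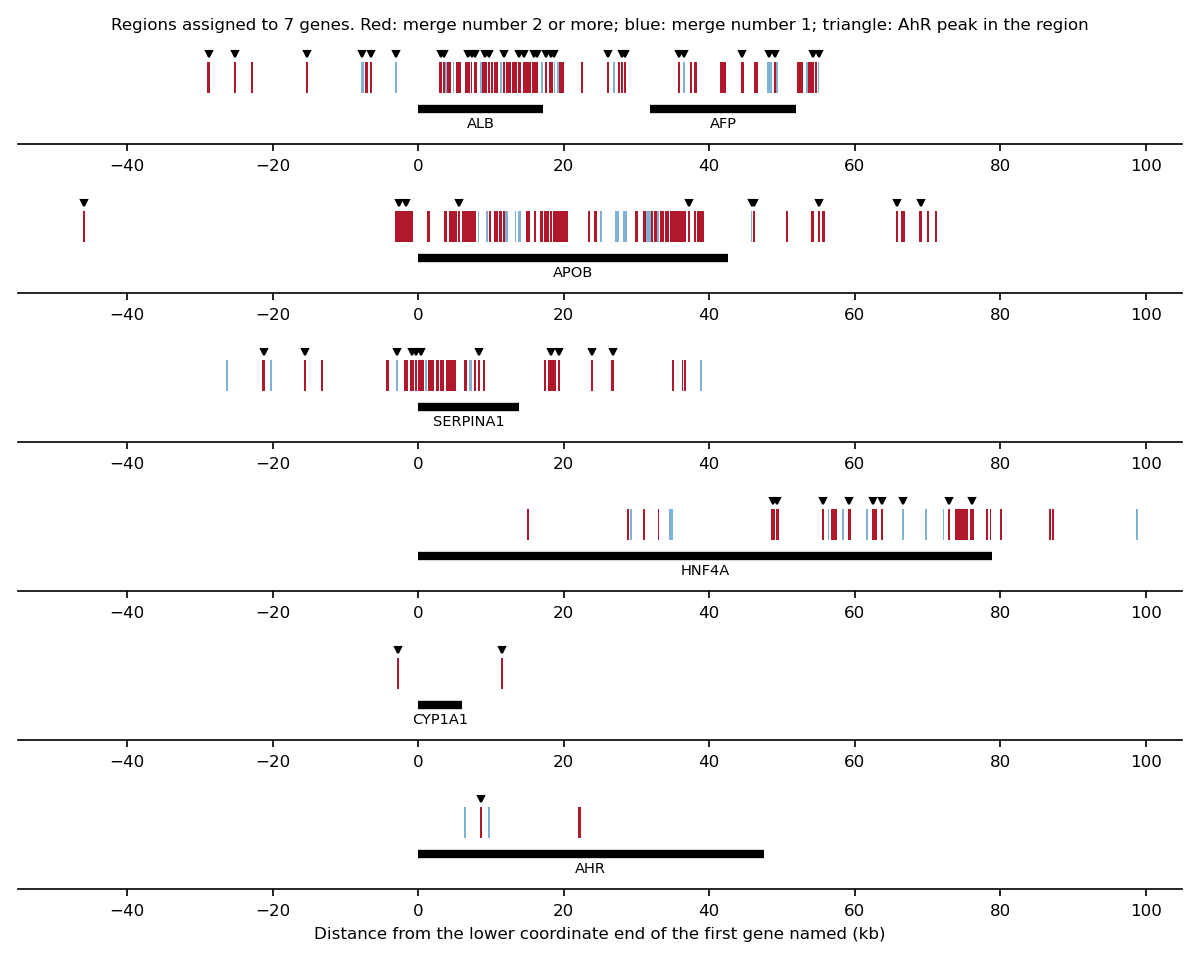
Regions assigned to 7 genes by distance in kb from the lower coordinate end of the first gene named (x axis), red for merge number 2 or more and blue for 1, with triangles where an AhR peak lies in the region and black bars for gene bodies. ALB and AFP share 61 regions and APOB has 56, while CYP1A1 has 2 and AHR 4.

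Some long stretches held many genes and no region. Ordered by protein-coding genes wholly inside, among the 400 longest gaps, the first was 0.968 Mb of chromosome 8 with 42 genes from DEFA6 to DEFB103A, antimicrobial defensin genes with FAM90A copies. Next were 0.937 Mb of chromosome 1 with 34 genes, 33 of them olfactory receptors, and 1.70 Mb of chromosome 19 with 30 genes from ZNF565 to ZNF573, mostly zinc finger genes. A gap of 0.884 Mb on chromosome 11 held 28 genes, all olfactory receptors, and 0.810 Mb of chromosome 1 held 28 from AADACL3 to PRAMEF20. A gap of 1.75 Mb on the X chromosome held 28 genes from DRP2 to RAB40AL, among them RPL36A, a ribosomal protein gene, and HNRNPH2, an RNA-binding protein gene. Near-identical gene copies take few uniquely placed reads, and the part of this in the defensin and PRAMEF gaps was not tested.

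Regions were unevenly spread over chromosomes. Chromosome 20 had 80.7 regions per Mb, chromosome 17 had 71.7, 16 had 59.4, 19 had 54.2, 22 had 47.0 and 2 had 46.1. X had 11.2 and Y 2.55. Set against genes the order changed. Chromosome 20 again led with 9.67 regions per protein-coding gene, followed by 2 with 8.90, 18 with 7.93, 14 with 7.10 and 6 with 6.98, and 19 had 2.19 and X 2.05. The median width ran only from 276 bp (6) to 294.5 bp (X), and the median gap from 2539 bp (20) to 12805 bp (X).

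The share of regions with merge number 2 or more was lowest on chromosome 20, 75.6%, and highest on 19, 80.7%. Over 23 chromosomes without Y its correlation with regions per gene was Pearson r = −0.67 and Spearman rho = −0.58, and with regions per Mb r = −0.39 and rho = −0.20, as a description over chromosomes that share libraries and differ in copy number. HepG2 is known to carry extra copies of chromosomes 2, 14, 16, 17 and 20. Their regions per gene were 8.90, 7.10, 6.27, 5.10 and 9.67, and their merged shares 77.0%, 76.9%, 77.4%, 77.6% and 75.6%. The part of copy number in these counts was not tested. The AhR share was lowest on chromosome 20 among autosomes, 25.3%, and highest on chromosome 18, 45.0%.

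**Figure D5:**
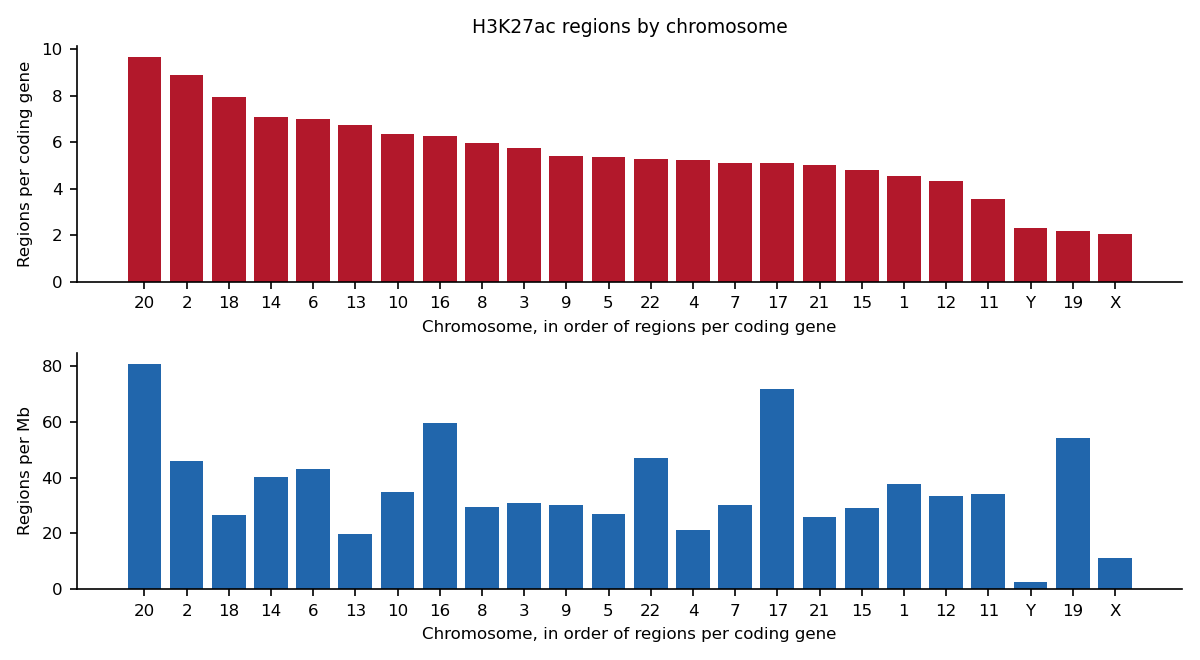
Regions per protein-coding gene (top, red bars) and per Mb (bottom, blue bars) for 24 chromosomes in order of regions per gene. Chromosome 20 is highest in both (9.67 per gene and 80.7 per Mb), and chromosome 19 is low per gene (2.19) but high per Mb (54.2).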

How the data were processed

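The authors deposited 6 peak lists from 54 ChIP-seq libraries, each with 5 columns of name, chromosome, start, end and strand sign, so the deposited values are positions (build hg38) and not counts or signal. Bowtie2 and HOMER are named per the submitters' processing notes, and the sources used here give no version, caller setting, filter or account of which peak sets were merged. The planned edgeR comparison of B2-deficient and control libraries needs a count per library and was not possible. Library depth is unknown.

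The members, the 25 gene lists (385 of 386 symbols found) and the alternatives were chosen with earlier results of these data known, which holds for every list and rule below. Genes, starts and hairpins came from RefSeq tables of GRCh38.p14. Distances use region centres, unless an edge is named, and overlap means at least 1 bp shared. Regions went to the nearest protein-coding body within 50 kb, with ties going to the gene whose end is nearest, so at overlapping genes the assignment is uncertain. Named genes were the 20 with most regions, the 15 with most per 100 kb of body (10 kb or longer), the 10 longest with an empty body, the 4 leading and the empty members of each list, and ALB, HNF4A, AHR and CYP1A1. Some genes that this rule names are not reported here. Other genes named were chosen after their values were seen. Alternatives changed the merge number, bins, windows, overlap and stitching distance. Tested on simulated data, the routines recovered 2000 of 2000 overlaps, 500 of 500 gene assignments, 2000 of 2000 distances and 300 of 300 clusters. Scripts ran in Python 3.11.15 (SciPy 1.17.1, pandas 2.3.3, NumPy 2.4.6, with figures by Matplotlib 3.10.9). No start or hairpin of chromosome 8 was used.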

Additional observations from a re-analysis of the deposited data

How the results depend on the processing

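Of 17 alternative values for the 8 results with a value, 5 stayed within the interval or 1.5-fold range of the main value and 12 moved. With merge number 2 or more the median width was 289 bp (283 bp in all), the median gap 7285 bp (5109 bp in all), and the share inside protein-coding genes 50.4% (50.9% in all). Beyond 3 kb of protein-coding gene ends the median gap was 5780 bp, and over gaps without a curated start or hairpin, an alternative chosen after seeing the data, 3141 bp. Counting all genes of the table put 63.7% of regions inside a gene. The ratio just outside to just inside 3 kb of starts, 6.47, was 4.44 with 250 bp bins and 8.14 with 1000 bp bins. The share in clusters of 5 or more, 45.2%, was 28.4% with joins up to 5 kb and 65.2% up to 20 kb. Whether most regions lie in such clusters thus depends on the joining distance. An overlap of 50% of the shorter interval gave an AhR share of 37.1% (37.8% at 1 bp) and a C/EBPα share of 27.2% (28.9%). Genes with a region numbered 12589 within 10 kb, 12983 with merge number 2 or more and 10279 by body, beside 13735. No paired analysis was possible because the list carries no value per library, so replicate blocks, leaving out a library, DESeq2 and low-count filters were not run.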
